A study of Mus musculus with 9 samples.

Results

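Forkhead (Fox), Sox, T-box (Tbx) and Gata genes encode 4 families of DNA-binding transcription factors, and their RNA was followed in cultured vascular progenitor cells given TGF-β1 with or without the bromodomain ligand PFI-3. Members were taken by name: every gene of the count table whose symbol is Foxa to Foxs, Sox, Tbx or Gata followed by its number, leaving out Sox5, Sox6 and Sox9. This gave 79 genes of the 55416 in the table, made up of 44 Fox, 16 Sox, 13 Tbx and 6 Gata genes. Of these, 40 had enough reads for a test and 39 did not, so every count of changed members below is out of the 40.

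Each family is held together by its DNA-binding fold: the winged-helix forkhead domain in Fox proteins, the HMG box in Sox proteins, the T-box in Tbx proteins and paired zinc fingers in Gata proteins. These factors set and keep cell identity in development, and several have known roles in the vessel wall, among them Gata6 in smooth muscle, Tbx18 in mural cells such as pericytes, Foxc1 and Foxc2 in vascular mesenchyme and the SoxF genes in endothelium. TGF-β acts through Smad proteins, which bind short DNA motifs weakly and lean on partner factors such as Foxh1. Foxo proteins are held out of the nucleus by Akt signaling, and Foxm1 drives genes of mitosis.

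The cells were AdvSca1-SM cells, Sca1-expressing progenitors of the artery wall that descend from smooth muscle. They were sorted by the study as YFP+ Sca1+ cells from aorta and carotid artery, pooling SM22α-Cre-YFP mice on a C57BL/6 background, in which the SM22α promoter drives Cre in smooth muscle and YFP then marks the lineage, and were expanded in culture. All 3 groups therefore share the Cre and reporter alleles, the sort and the subculture, and all received 0.1% DMSO. Male and female mice were used in the study, and its methods for the sort give an age of 8 weeks. The Stem group was labelled vehicle and, by the study's account, was kept in stem cell medium with growth factors. The TGF-β group was growth-arrested, moved to low-serum DMEM and given 5 ng/mL TGF-β1. The Both group received the same with 50 μM PFI-3, a small molecule that binds the Brg1 bromodomain, and the treatment lasted 72 h. Stem and TGF-β thus differ in medium as well as in TGF-β1, and the effects of these cannot be told apart, while PFI-3 is what separates Both from TGF-β. No group received PFI-3 without TGF-β1.

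Each group had 3 libraries, with 35686291 to 47741128 counted reads per library, of which the members took 0.126% to 0.174%. The study speaks of biological replicates, and the labels number them without saying whether each was a separate isolation from the pooled mice, so p-values measure the spread between these samples, which may be partly technical. All 9 genes listed as markers of the labelled cells had enough reads for a test, but not at like levels in the groups. From Stem to TGF-β 4 were higher past the threshold given below (Col1a1, Col1a2, Tagln and Acta2). The other 5 were lower past it (Ly6a, Cd34, Pdgfra, Dcn and Lum). The paper treats Acta2 and Col1a1 as myofibroblast genes. Ly6a (Sca1) averaged 7635 normalized counts in Stem, 941 under TGF-β and 734 in Both, and Cd34 averaged 379, 20.8 and 13.4. Most markers of these other cells were low. None of 7 hepatocyte and none of 5 epithelial markers reached 10 reads in any library, although the labels' RNA protocol speaks of hepatic tissue. Likewise, 8 of 9 leukocyte markers, Ptprc among them, were under 10 reads. The exception, Csf1r, averaged 28.5 normalized counts in Stem, 76.1 under TGF-β and 138 in Both. It was higher past the threshold from Stem to TGF-β (log2 fold change 1.41). From TGF-β to Both it rose by 0.86 (edgeR adjusted p = 0.0149). Endothelial and glial markers are given beside Sox7 and Sox8.

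Compared per kilobase of longest transcript, so that long and short genes can be set side by side, Sox4 had the highest level of all members. Levels are in normalized counts, reads scaled to a common library size by edgeR's TMM method, here divided by transcript length. Sox4, a SoxC factor of progenitor cells, stood at 2484 ± 50.9 per kilobase in Stem (mean ± SD, n = 3), and it held 94.2% of the summed Sox level over all libraries. Gata6 held 79.7% of the Gata level and Gata2 17.5%. Tbx18 held 59.0% of the Tbx level and Tbx15, a factor of limb and trunk mesenchyme, 24.9%. The Fox family was spread over many genes: the leading ones, Foxp1 and Foxk2, held 12.8% and 11.6%.

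**Figure D1:**
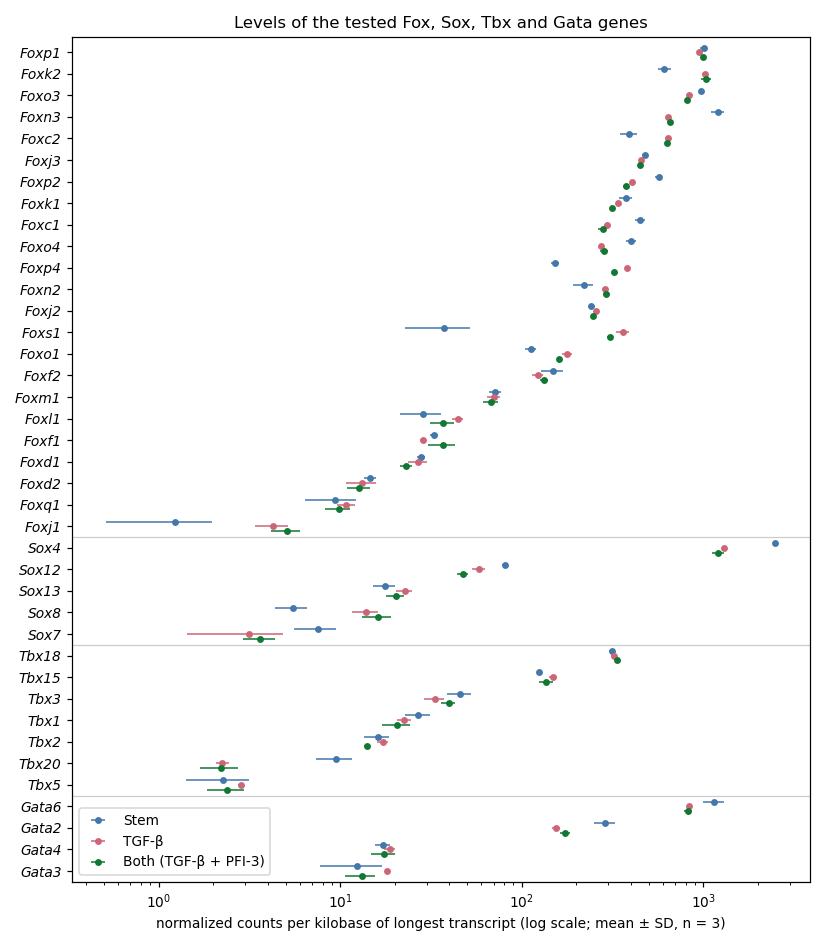
Levels of 39 of the 40 tested members in Stem, TGF-β and Both, as normalized counts per kilobase on a log axis (points, mean; bars, SD; n = 3), ordered by mean level within Fox, Sox, Tbx and Gata. Sox4, Gata6 and Tbx18 each lead a steep order within their family, whereas many Fox genes lie between 100 and 1000, and Foxs1 shows the widest gap between Stem and the other groups.

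Summed over its members, the Fox level per kilobase was 7672 ± 101.1 in Stem, 7735 ± 19.3 under TGF-β and 7602 ± 68.6 in Both. The Sox sum went from 2597 ± 52.3 to 1403 ± 13.7 and 1299 ± 85.0, which is Sox4 for the most part. The Gata sum went from 1464 ± 194.4 to 1030.1 ± 18.5 and 1033 ± 39.6, and the Tbx sum was 539 ± 15.8, 549 ± 16.0 and 553 ± 21.6. In bulk RNA of this kind, fewer cells expressing a gene and less RNA per cell cannot be told apart.

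Of the 39 members that were not tested, 17 had no read in any library and 22 had at least 1. Those without a read include Sox2 and Sox1 of pluripotent and neural cells, Sox10 of neural crest and glia, Sox17 of endothelium, Gata1 of red blood cells and the FoxI, FoxE and FoxB genes, Foxi2 excepted with 6 reads over the 9 libraries. Foxh1, the Smad partner, had 2 reads in all. Liver and gut factors were near the limit, with 19 reads for Foxa1, 5 for Foxa2 and 15 for Foxa3, as was Foxp3 of regulatory T cells with 7. The most counted of the untested members were Foxo6 with 63, Sox11 with 56 and Foxl2 with 42 reads over the 9 libraries, too few for a test at this depth.

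The 250 bases before the transcription start are shown for 3 members that passed the threshold below and for Sox4, the most abundant member, because their RNA differed after TGF-β1 and CAGAC is the half-site that Smad proteins of the TGF-β pathway bind. They are RefSeq sequences of build GRCm38.p6, printed 5′ to 3′ on the gene's strand, with matches to CAGAC or its reverse complement GTCTG in capitals. In the RefSeq table used here, 21 of the 40 tested members had such a window (Gata6 was not searched), among them 3 of the 6 that passed the threshold.
Foxp4, minus strand, chr17:47924633-47924882: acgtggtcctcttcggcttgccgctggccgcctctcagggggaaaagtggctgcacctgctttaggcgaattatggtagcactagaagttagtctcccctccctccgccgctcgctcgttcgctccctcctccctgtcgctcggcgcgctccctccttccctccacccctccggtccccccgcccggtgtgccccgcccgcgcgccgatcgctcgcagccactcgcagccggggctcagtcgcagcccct
Sox8, minus strand, chr17:25570687-25570936: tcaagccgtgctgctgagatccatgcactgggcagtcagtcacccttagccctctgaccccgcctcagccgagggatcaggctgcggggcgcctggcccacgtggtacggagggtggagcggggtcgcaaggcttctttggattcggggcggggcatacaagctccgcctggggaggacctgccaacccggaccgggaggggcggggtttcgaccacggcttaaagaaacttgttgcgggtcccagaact
Tbx20, minus strand, chr9:24774304-24774553: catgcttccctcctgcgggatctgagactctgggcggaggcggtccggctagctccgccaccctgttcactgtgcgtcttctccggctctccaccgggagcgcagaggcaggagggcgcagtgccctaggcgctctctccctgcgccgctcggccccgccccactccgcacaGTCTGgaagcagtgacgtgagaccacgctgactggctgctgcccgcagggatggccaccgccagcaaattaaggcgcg
Sox4, minus strand, chr13:28953700-28953949: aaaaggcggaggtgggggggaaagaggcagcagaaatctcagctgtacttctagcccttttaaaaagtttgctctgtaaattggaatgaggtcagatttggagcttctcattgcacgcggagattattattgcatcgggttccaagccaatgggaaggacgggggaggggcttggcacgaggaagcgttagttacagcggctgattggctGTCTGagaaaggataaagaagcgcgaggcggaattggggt

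Tbx20 and Sox4, which were lower after TGF-β1, each hold 1 half-site, and Foxp4 and Sox8, which were higher, hold none. The half-site is short and common: 42.2% of 32851 promoter windows of this length hold it, and 9 of the 21 tested members did so in at least 1 of their windows. The letters of the families' own motifs were sought on both strands in the same windows. A forkhead motif, TGTTTAC, was in 1 of the 21 and in 3.17% of all windows. The SOX motif ACAAAG was in 2 and in 16.5% of all, and neither the T-box half-site GGTGTGA (3.33% of all windows) nor AGATAA for GATA (9.99%) was in any of them. A match is a run of letters, not a site shown to be bound.

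The first comparison asks which members differ after the switch from stem cell medium to TGF-β1. Of the 40 tested, 6 had an adjusted p under 0.05 together with a change of more than 1 on the log2 scale, which is 15%, beside 25.1% of all 14879 tested genes (edgeR's quasi-likelihood test, Benjamini-Hochberg over all genes). Foxs1, Foxj1, Foxp4 and Sox8 were higher under TGF-β, 10% of members beside 10.6% of all genes, and Tbx20 and Sox7 were lower, 5% beside 14.5%. Without the 2-fold limit, 26 members passed the adjusted p, 65% beside 75% of all genes. Of these, 11 were higher, 27.5% beside 37.3%, and 15 were lower, 37.5% beside 37.7%. The median log2 fold change was -0.07 over the members and -0.0027 over all genes, and the median size of the change, regardless of sign, was 0.42 and 0.49. DESeq2 called 6 members past 2-fold and 25 by the adjusted p alone.

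These splits lean on how the libraries are scaled. With total counts in place of TMM, the median of all genes moves to -0.12, Sox4, Gata2 and Foxn3 pass the 2-fold limit as well, and the split becomes 4 higher and 5 lower, 10% and 12.5% of members beside 9.05% and 16.5% of all genes. At an adjusted p alone, Foxj3 and Foxp1 come in and Foxj2 and Tbx15 drop out. Relative to the median of all genes, the members' median is -0.06 under either scaling.

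**Figure D2:**
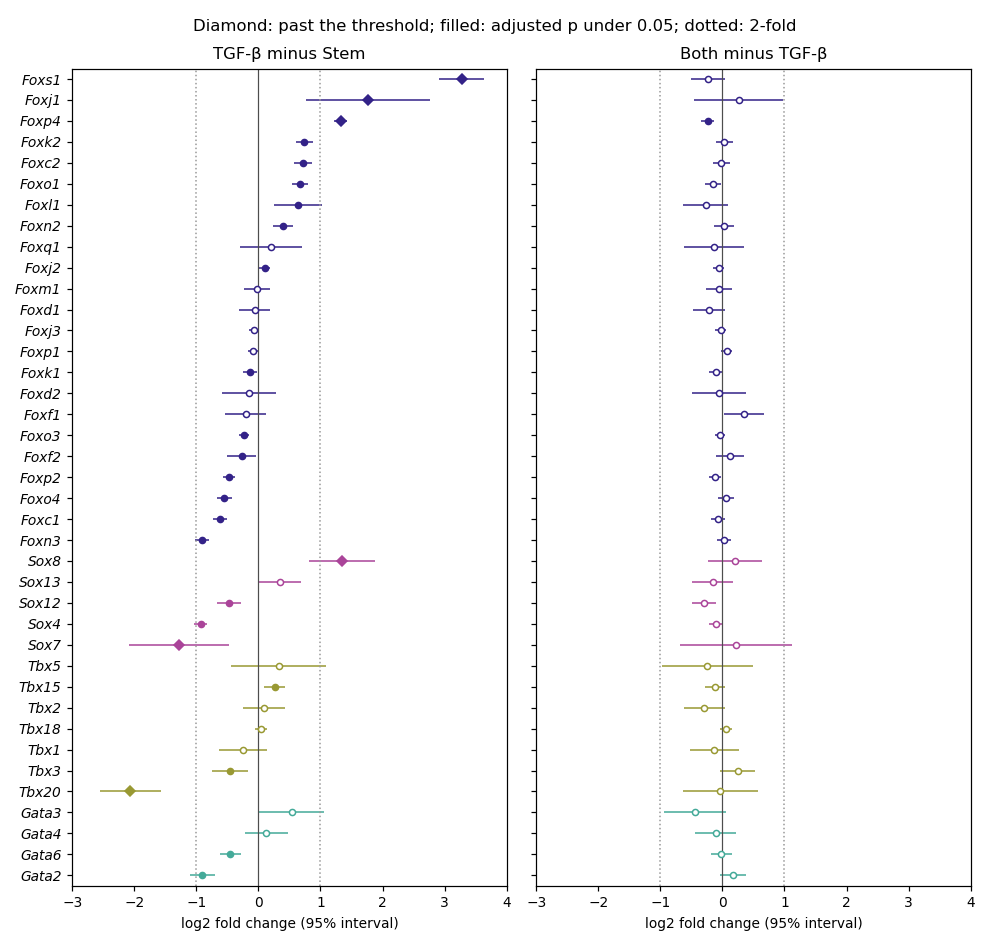
Log2 fold changes of 39 of the 40 tested members with their 95% intervals, for TGF-β minus Stem (left) and Both minus TGF-β (right), coloured by family; diamonds passed the 2-fold threshold, filled symbols an adjusted p of 0.05, and dotted lines mark a 2-fold change. On the left, Foxs1, Foxj1, Foxp4 and Sox8 lie to the right of the dotted lines and Tbx20 and Sox7 to the left; on the right every point lies between them and Foxp4 alone is filled.

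Foxs1, a small forkhead factor known from perivascular cells, changed most of all members. Its normalized counts were 38.7, 70.6 and 36.8 in the Stem libraries, 438, 514 and 463 under TGF-β and 388, 421 and 398 in Both. Stem was far below the other groups, and the highest Both library lay below the lowest TGF-β library. The log2 fold change from Stem to TGF-β was 3.28 ± 0.17 (SE), with an adjusted p of 3.2e-09 by edgeR's quasi-likelihood test. From TGF-β to Both it was -0.23 ± 0.12, which did not pass (adjusted p = 0.286).

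Foxp4, which pairs with Foxp1 and Foxp2 through a leucine zipper, rose by 1.32 ± 0.05 on the log2 scale (SE, edgeR adjusted p = 2.21e-10). It had 634, 574 and 614 normalized counts in Stem, 1522, 1491 and 1547 under TGF-β and 1251, 1309 and 1310.4 in Both. All 3 groups are apart, with Both between the others. Foxj1, the factor that switches on motile cilia genes, was scarce throughout, with 1.05, 4.35 and 4.33 normalized counts in Stem, where the first value is a single read, 8.63, 13.2 and 11.7 under TGF-β and 13.5, 10.9 and 15.8 in Both. Stem lay below both other groups, which overlap, and the log2 fold change of 1.76 ± 0.46 (SE, edgeR adjusted p = 0.00395) rests on these few reads.

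**Figure D3:**
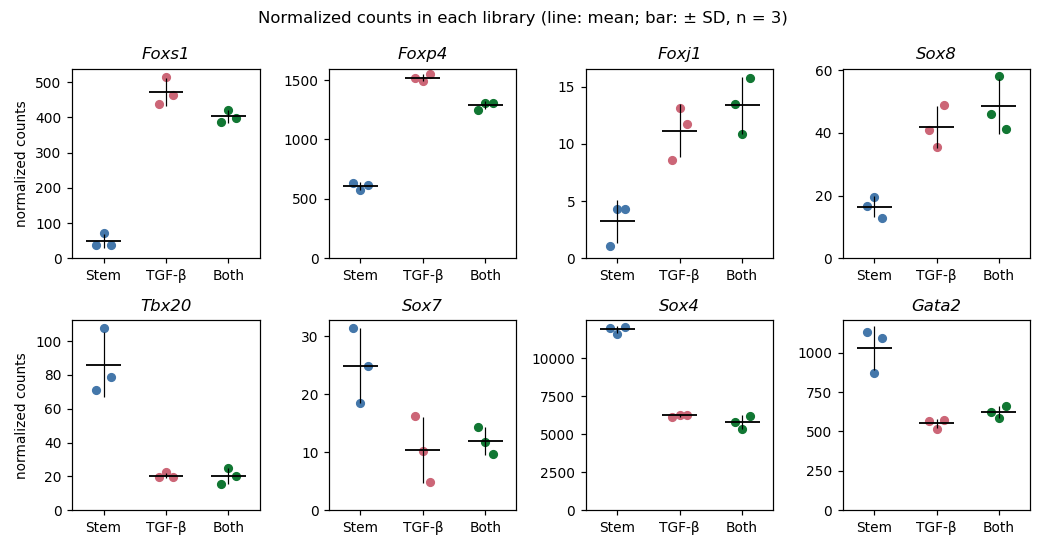
Normalized counts in each library for the 6 members that passed the threshold under TGF-β, and for Sox4 and Gata2, which came close to it (points, libraries; line, mean; bar, SD; n = 3; axes start at 0). TGF-β and Both lie apart from Stem in each panel. The Both libraries also lie wholly below those of TGF-β in Foxp4, 1251 to 1310 against 1491 to 1547, and in Foxs1, 388 to 421 against 438 to 514, and wholly above them in Gata2, 582 to 660 against 518 to 573. Between TGF-β and Both only Foxp4 passed the adjusted p (edgeR, 0.00891), while Foxs1 (0.286) and Gata2 (0.296) did not. The share of all genes that separate in this way was not counted.

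Of 8 Fox subgroups with at least 2 tested members, 5 held members that passed the adjusted p in both directions: FoxC, FoxK, FoxN, FoxO and FoxP. In the other families 1 of 2 Tbx subgroups did so, 0 of 2 Gata and 0 of 1 Sox. Of all tested genes, 37.3% passed this limit as higher and 37.7% as lower. How often sets of other genes of like size divide in this way was not tested. In FoxD and FoxF the estimates of all tested members were below 0. With total counts FoxJ joins the Fox subgroups, making 6, and the Tbx count becomes 0. Foxc1 and Foxc2 are paralogs with overlapping roles in vessels. Foxc1 fell from 2448, 2721 and 2715 normalized counts in Stem to 1717, 1668 and 1758 under TGF-β (log2 fold change -0.62 ± 0.05, SE, edgeR adjusted p = 4.57e-07). Foxc2 rose from 1146, 930.1 and 1094 to 1674, 1753 and 1789.6 (0.72 ± 0.07, edgeR adjusted p = 9.83e-07). Stem and TGF-β overlap in neither gene, but the share of all genes that separate in this way was not counted. The Foxc1 share of the summed FoxC level per kilobase went from 53.7% in Stem to 31.5% under TGF-β and 30.6% in Both.

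Within FoxP, Foxp2 fell from 3881, 3624 and 3998 to 2827, 2655 and 2775 normalized counts (-0.48 ± 0.05 on the log2 scale, SE, edgeR adjusted p = 1.17e-06) while Foxp4 rose. Foxp1, the most abundant Fox member, had 7167, 6926 and 7577 normalized counts in Stem, 6872, 6819 and 6712 under TGF-β and 7234, 7113 and 7049.7 in Both. Its Stem and Both libraries lie above those of TGF-β, by a small margin that did not pass the test (log2 fold change -0.09 ± 0.04 from Stem to TGF-β, edgeR adjusted p = 0.0617). It passed as lower with total counts (-0.21, edgeR adjusted p = 0.00173), with a mean of at least 10 counts (adjusted p = 0.0323), with the replicate block (0.0475) and without the second Stem library (0.0149). As a share of the FoxP level per kilobase, Foxp4 went from 8.81% in Stem to 21.9% under TGF-β and 19.1% in Both, and Foxp2 from 32.9% to 23.5% and 22.1%.

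The FoxO genes, which carry insulin and stress signals, divided too. Foxo1 rose from 907, 1038 and 974 in Stem to 1624, 1435 and 1581 under TGF-β (0.67 ± 0.06, edgeR adjusted p = 6.57e-07). Foxo3, the most abundant of them, fell from 6581, 6913 and 6584 to 5674, 5859.8 and 5631 (-0.23 ± 0.04, edgeR adjusted p = 0.000143). Foxo4 fell by 0.55 on the log2 scale. Stem and TGF-β overlap in none of the 3, but the share of all genes that separate in this way was not counted. Foxo1 thereby went from 7.54% of the FoxO level per kilobase to 13.9%, and it was 12.8% in Both.

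**Figure D4:**
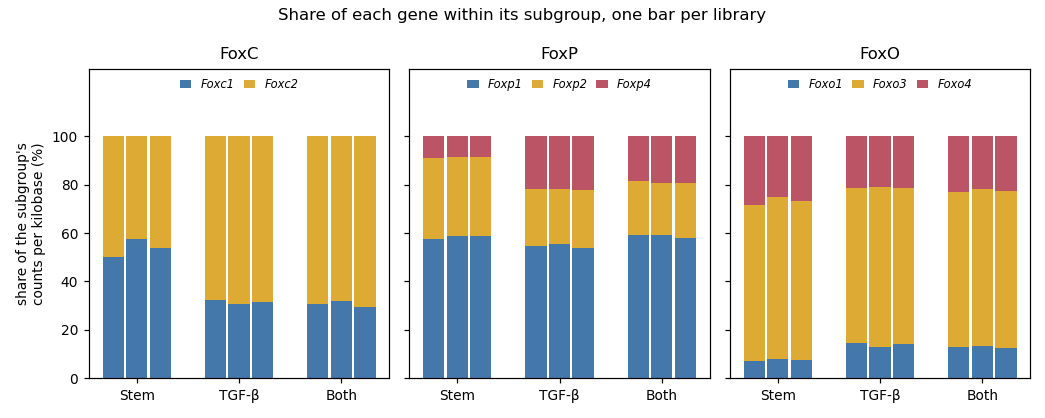
Share of each gene in the summed level per kilobase of the FoxC (left), FoxP (middle) and FoxO (right) genes, in percent, with one stacked bar per library. The Foxc1, Foxp2 and Foxo4 shares are smaller and the Foxc2, Foxp4 and Foxo1 shares larger in every TGF-β and Both library than in any Stem library.

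FoxK and FoxN were divided as well. Foxk2, a repressor tied to metabolism and autophagy, rose from 3308, 2809 and 3109 normalized counts in Stem to 5231, 4901 and 5239.9 under TGF-β (0.74 ± 0.06, edgeR adjusted p = 4.47e-07). Its paralog Foxk1 fell by 0.14 on the log2 scale, with groups that overlap (edgeR adjusted p = 0.0308). Foxn3, a repressor, had 8489, 9979 and 9391 in Stem and 4970.3, 4941 and 4933 under TGF-β, a fall that stopped short of 2-fold (-0.91 ± 0.05, edgeR adjusted p = 1.38e-08). Foxn2 rose by 0.40 on the log2 scale. These subgroups were picked out after the values were seen.

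Smaller differences past the adjusted p were seen in other Fox members. Foxl1, a marker of gut mesenchyme, rose by 0.63, and Foxj2 by 0.10, a direction that turns to -0.02 with total counts. Foxf2, known from brain pericytes and gut mesenchyme, fell by 0.27 on the log2 scale. Foxm1 did not differ detectably: it had 344, 302 and 349 normalized counts in Stem, 356, 312 and 311 under TGF-β and 321, 341 and 282 in Both, and the interval of the log2 change from Stem to TGF-β was -0.23 to 0.18. Foxj3 did not pass with TMM (log2 fold change -0.07 ± 0.04, SE, edgeR adjusted p = 0.129) but was lower with total counts (-0.19, adjusted p = 0.000672). Foxd1, Foxd2, Foxf1 and Foxq1 did not pass, and Foxq1 shares 66.1% of its exon bases with a gene on the opposite strand.

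Sox4 fell from 12017, 11633 and 12086 normalized counts in Stem to 6159.5, 6273 and 6289 under TGF-β, and stood at 5819, 5326 and 6222 in Both. The Stem libraries lie well above the others, and TGF-β and Both overlap. The log2 fold change of -0.93 ± 0.05 (SE, edgeR adjusted p = 5.93e-09) fell just short of 2-fold, and with total counts it was -1.05. A long non-coding RNA gene on the opposite strand covers 54.6% of the Sox4 exon bases in the GRCm38 annotation. Its identifier is not among the genes counted here. The paper describes a stranded library kit, but whether the reads were counted by strand is not given in the sources used here. Any reads of that gene among those of Sox4 cannot be told apart. Sox12, the other tested SoxC gene, fell with it, from 344, 359 and 371 to 264, 234 and 274 (-0.47 ± 0.08, edgeR adjusted p = 0.00028).

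Sox8, a SoxE factor like Sox9 and Sox10, rose from 16.8, 19.6 and 13.0 normalized counts in Stem to 41.0, 35.5 and 48.8 under TGF-β, and had 45.9, 58.2 and 41.3 in Both. Stem does not overlap with the other groups, and the log2 fold change was 1.34 ± 0.24 (SE, edgeR adjusted p = 0.000318). An antisense transcript overlaps 10.6% of its exon bases and averaged 17.4, 31.7 and 41.5 normalized counts in Stem, TGF-β and Both. Of 6 glial markers, 4 were tested. S100b rose by 3.72 and the myelin gene Mbp by 0.49 on the log2 scale, and Erbb3 did not pass. Their summed level was 170 to 218 normalized counts in Stem, 567 to 672 under TGF-β and 419 to 456 in Both, while Cdh19 stayed under 10 reads in every library and Sox10 had none. Their part in the Sox8 result was not tested.

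Sox7, a SoxF factor of endothelium, fell from 31.4, 18.5 and 24.9 to 16.2, 10.1 and 4.88 normalized counts, and was 14.4, 11.8 and 9.65 in Both. Its groups lie close together without overlap between Stem and TGF-β. The log2 fold change was -1.28 ± 0.37 (SE, edgeR adjusted p = 0.00747), and without the third TGF-β library it was -0.92 and no longer past 2-fold. Of 8 endothelial markers, 4 were tested: Tek and Emcn were lower under TGF-β, Kdr was higher and Vwf did not pass, Cldn5 had no read, and Pecam1, Cdh5 and Tie1 were too low for a test. Their summed level was 115 to 252 normalized counts in Stem, 60.4 to 93.7 under TGF-β and 52.7 to 70.1 in Both. Emcn alone averaged 104, 8.27 and 2.12 in these groups, while Kdr averaged 0.721, 26.1 and 27.8. The part of these markers in the Sox7 result was not tested. Sox13, which groups with Sox5 and Sox6, did not pass (log2 fold change 0.35 ± 0.15, edgeR adjusted p = 0.0555).

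Tbx20, a T-box repressor of the developing heart, had the deepest fall of all members. It had 71.2, 108 and 79.0 normalized counts in Stem, 19.4, 22.3 and 19.5 under TGF-β and 15.3, 24.7 and 20.2 in Both. Every Stem library lay above every other library, and the log2 fold change from Stem to TGF-β was -2.06 ± 0.22 (SE, edgeR adjusted p = 3.82e-06). The more abundant T-box genes had smaller estimates. Tbx18 had 1502, 1419 and 1463 in Stem, 1554, 1452 and 1495 under TGF-β and 1595, 1543 and 1562 in Both, and the interval of its log2 change from Stem to TGF-β was -0.06 to 0.13. The estimate of 0.04 turns to -0.08 with total counts. Tbx15 was 448, 452 and 428 in Stem and 554, 502 and 535 under TGF-β, higher by 0.26 on the log2 scale (edgeR adjusted p = 0.00707), which did not pass with total counts (0.14, adjusted p = 0.106).

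Tbx3, a repressor, fell by 0.46 on the log2 scale (edgeR adjusted p = 0.00681). Its close relative Tbx2 had a log2 fold change of 0.09 ± 0.15 (SE) and did not pass. Tbx1, of the pharyngeal arches, and Tbx5, of heart and forelimb, did not pass either, and Tbx5 ranged from 5.23 to 11.9 normalized counts over the 9 libraries.

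Gata6, a regulator of vascular smooth muscle, fell from 4692, 3671 and 4641 normalized counts in Stem to 3209, 3137 and 3177 under TGF-β, and was 3307, 3109 and 2985 in Both. The second Stem library was the lowest of its group but still above all others, and the log2 fold change was -0.45 ± 0.08 (SE, edgeR adjusted p = 0.000222). Gata2, a factor of blood and endothelial progenitors, fell from 1133, 869 and 1090.5 to 563, 518 and 573, with 623, 582 and 660.0 in Both. Its log2 fold change was -0.90 ± 0.09 (edgeR adjusted p = 2.38e-06), and it passed 2-fold with total counts (-1.02) or without the second Stem library (-1.01). Gata4, a heart and gut factor, and Gata3, a T cell and trophoblast factor, did not pass, with log2 fold changes of 0.13 ± 0.16 and 0.53 ± 0.24 (SE).

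Genes downstream of the Fox members were read from lists of textbook targets. Of 17 FoxO targets, 16 were tested, and 6 passed the threshold as lower under TGF-β and 0 as higher, by edgeR's test and by DESeq2, beside 14.5% and 10.6% of all genes in edgeR. At an adjusted p alone, which 75% of all genes passed in edgeR, all 16 passed in both tools. In edgeR, 14 were lower and 2 higher. All 16 also had an unadjusted p under 0.05 in both tools, a limit for which no share of all genes is given here. The median log2 fold change was -0.87, beside -0.0027 over all genes. Bcl2l11, which encodes the pro-apoptotic Bim, had the deepest fall at -2.80, followed by Txnip, the thioredoxin inhibitor, at -2.13 and the insulin receptor substrate Irs2 at -1.35, with Pdk4, Bcl6 and Sesn1 also past 2-fold. Gadd45a and Cat, for DNA repair and catalase, were higher instead, by 0.76 and 0.73 on the log2 scale.

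Of 14 FoxM1 targets, all tested, 4 were higher past the threshold and 0 lower in both tools, beside 10.6% and 14.5% of all genes in edgeR, with a median of 0.69. At an unadjusted p under 0.05, a limit for which no share of all genes is given here, 13 passed in both tools. Of the 13 past edgeR's adjusted p, 11 were higher and 2 lower, beside 37.3% and 37.7% of all genes. By DESeq2's adjusted p 11 passed. Bub1, a spindle checkpoint kinase, rose by 1.48 on the log2 scale, Birc5 (survivin) by 1.27, the mitotic kinase Plk1 by 1.17 and the centromere motor Cenpe by 1.04. Top2a and Cdc25b went the other way, by -0.14 and -0.26, with Cdc25b close to the limit (edgeR adjusted p = 0.0496). DESeq2's size factors left 11 targets higher and 1 lower at edgeR's adjusted p alone. Foxm1 itself, as given above, did not differ detectably. With total counts the medians were -0.99 for the FoxO targets and 0.57 for the FoxM1 targets, with 8 lower and 3 higher past the threshold.

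Partners of the 4 families were also read. Of 14 cofactors, 10 were tested, 1 was higher past the threshold and 2 were lower, shares close to the 10.6% and 14.5% of all genes. Zfpm1 (Fog1), which binds Gata factors, rose by 1.34 on the log2 scale, and the Groucho corepressors Tle4 and Tle2 fell, with log2 fold changes of -2.71 and -1.87. Their relative Tle1 was higher by 0.71, within 2-fold. Of 8 related genes that the naming rule leaves out, such as the T-box genes Eomes and Tbxt, 5 were tested, and Trps1, an atypical Gata-type repressor, was the only one past the threshold (log2 fold change -1.31). The T-box protein gene Mga had a log2 fold change of -0.54.

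The PFI-3 comparison asks how far the members' RNA differs when PFI-3 is added to TGF-β1. Between TGF-β and Both, 0 of the 40 passed the 2-fold threshold by edgeR's quasi-likelihood test, beside 0.632% of all tested genes, and DESeq2 also gave 0. At an unadjusted p under 0.05 each tool gave 6 members, a limit for which no share of all genes is given here. At an adjusted p alone 1 member passed in each, Foxp4, which was lower in Both: 2.5% of members beside 8.92% of all genes in either direction and 5.38% lower. The estimates of all 40 lay between -0.45 for Gata3 and 0.35 for Foxf1 on the log2 scale. For 39 of the 40 the whole 95% interval lay within a 2-fold change, Sox7 being the exception (-0.68 to 1.12), and for 28 it lay within 0.5.

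The Foxp4 change was -0.24 ± 0.05 on the log2 scale (SE, edgeR adjusted p = 0.00891), from the libraries given above, with an interval of -0.34 to -0.13. Without the first Both library it no longer passed (adjusted p = 0.0511). Also under an unadjusted p of 0.05 in edgeR were, among others, Sox12, Foxo1, Foxp2 and Foxf1, whose adjusted p ran from 0.061 for Sox12 to 0.166 for Foxf1. Sox12 had 212, 223 and 196 normalized counts in Both, below every TGF-β library. The comparisons of TGF-β with Stem and with Both share the TGF-β libraries, so a high or low TGF-β value enters both.

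The target lists were read in the same comparison, in which 0.632% of all genes passed the threshold and 8.92% the adjusted p alone. In Both against TGF-β, 0 of 16 FoxO targets and 0 of 14 FoxM1 targets passed the 2-fold threshold by edgeR's test or by DESeq2. In each tool 4 and 2 had an unadjusted p under 0.05, for which no share of all genes is given here. At edgeR's adjusted p alone, Gadd45a, Cat and Pik3ip1 were lower among the first, with log2 fold changes of -0.51, -0.32 and -0.30, and Plk1 among the second, with -0.53, which DESeq2 did not call. Among the cofactors, Tle4 was higher by 0.59 and Tle3 lower (-0.20) at that limit. The medians of the lists were 0.06, -0.08 and -0.12, beside -0.0020 over all genes.

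From Stem to Both, 7 of the 40 members passed the 2-fold threshold, 17.5% beside 22.8% of all genes. Foxs1, Foxj1, Foxp4 and Sox8 were higher in Both, 10% beside 9.55%, and Tbx20, Sox7 and Sox4 lower, 7.5% beside 13.2%. Sox4 came in with a log2 fold change of -1.04 ± 0.05 (SE, edgeR adjusted p = 2.44e-09), against -0.93 from Stem to TGF-β, and its own change from TGF-β to Both was -0.11 ± 0.05, which did not pass (adjusted p = 0.217). Foxp4 stood at 1.09 ± 0.05, and at 0.98 with total counts, which ends its call. For Foxs1 and Tbx20 the log2 fold changes from Stem to Both were 3.05 ± 0.17 and -2.10 ± 0.22 (SE), beside 3.28 and -2.06 from Stem to TGF-β.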

How the data were processed

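RNA-Seq of ribosome-depleted total RNA was read from the table of raw counts that the authors deposited, with 1 column per library and whole numbers per Ensembl gene. The submitters' processing notes name HISAT2 2.2.1, SAMtools 1.13 and HTSeq 0.11.3 with genome build GRCm39, whereas the paper's methods name STAR as the aligner; the strand setting of the counting and its handling of reads with several alignments are not given in the sources used here. These choices can shift reads between overlapping genes, and 14 of the 40 tested members share exon bases with another gene.

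Counts were analysed in R 4.3.3. Genes passing edgeR's filterByExpr were fitted with edgeR 4.0.16 (with limma 3.58.1) over all 9 libraries by group alone, with TMM factors from 0.967 to 1.08 and a prior count of 0.125, and tested by quasi-likelihood with Benjamini-Hochberg adjustment over 14879 genes. The threshold, an adjusted p under 0.05 with a log2 fold change beyond 1, follows the paper's methods, which name DESeq2; DESeq2 1.42.0 was run beside it. Normalized counts put each library on 1 size, the mean of 41184338 after TMM, at which 3 counts, taken as the limit that a count of 0 allows, correspond to 2.63 to 3.26; this covers counting error only. The lowest Spearman correlation between replicates of a group, taken across genes that are not independent of each other, was 0.9947. Simulated counts served to check the fits.

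Members were matched by symbol through a table of Ensembl identifiers, which paired 52083 of the 55416 genes. Transcript lengths and gene overlaps came from a GRCm38 annotation and were matched by gene, since it is not the build of the counts. Genes named were, by rule, up to 5 rises and 5 falls per family past the threshold, among genes averaging 50 or more normalized counts, members with an adjusted p under 0.05 for PFI-3, the 2 highest per kilobase in each family, and Foxh1, Foxm1, Foxo1 and Foxo3. Foxj1, Sox7, Sox8, Tbx20 and the other members given with values were chosen after their values were seen. The members, the target, cofactor and marker lists and the tests were chosen with earlier results of these data known.

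Alternatives were DESeq2, DESeq2's size factors or total counts, dropping the filter or asking for 10 counts on average, fitting only the 6 libraries of a comparison, a prior count of 2, a replicate block, edgeR's TREAT against 2-fold, dropping the fold-change minimum, and leaving out each library. The CUT&RUN, qPCR and animal experiments were not analysed here. Results for some genes withheld for evaluation are not reported here.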

Additional observations from a re-analysis of the deposited data

How the results depend on the processing

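The counts of members past 2-fold were 6, 0 and 7 (Stem versus TGF-β, TGF-β versus Both, Stem versus Both), beside 25.1%, 0.632% and 22.8% of all genes. Without the fold-change minimum they became 26, 1 and 22. Of all genes, 75% and 8.92% then passed in the first 2 comparisons. From Stem to Both, 5453 of the 14879 genes were then higher and 5447 lower, beside 8 and 14 of the 40 members. Under TREAT against 2-fold the members called were 3 between Stem and TGF-β (Foxp4, Foxs1 and Tbx20) and 4 between Stem and Both (Foxj1, Foxs1, Sox8 and Tbx20). From Stem to TGF-β, Foxj1 is not called with a mean of at least 10 counts or with only the 6 libraries compared, where it is not tested (5 members called in each). Members past an adjusted p alone between TGF-β and Both were 1 in the reported fit, 2 without a filter or with only the 6 libraries compared, and 0 (without the first Both library) to 3 (without the second Stem library) on leaving out 1 library. With the replicate block they were 3 (Foxp2, Foxp4 and Sox12). The shares of all genes under TREAT and in these other fits are not given here. The labels do not say whether the replicate numbers pair the samples. Deviations from the group means correlated at -0.06 to 0.177 between libraries of the same number and at -0.156 to 0.148 between others. With 3 libraries per group, these correlations cannot decide whether the samples are paired. Besides Foxj2, given above, signs turned in estimates that passed no threshold. With total counts, Tbx18 and Tbx2 from Stem to TGF-β were -0.0822 and -0.03, and from Stem to Both 6 members turned (Foxj2, Foxq1, Gata3, Gata4, Tbx5 and Tbx18). On leaving out 1 library, Foxm1 from Stem to TGF-β ranged from -0.0832 to 0.0164. From TGF-β to Both the ranges were -0.12 to 0.0196 for Foxm1, -0.0112 to 0.0777 for Foxk2, -0.0595 to 0.0153 for Gata6, -0.20 to 0.13 for Tbx20 and -0.13 to 0.67 for Sox7. The causes were not tested. Depth limits Foxj1, Sox7 and Tbx5 most, which have few reads per library.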
